A study of Drosophila melanogaster with 11 samples.

Results

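The genes twi, Ance, Doc3, ush and Dtg are transcribed along the dorsal-ventral axis of the early Drosophila embryo. They were picked by name from the array's annotation, 5 of 6793 genes measured, and they occupy 12 spots, 4 for twi and 2 for each of the other genes. The genes lie on chromosome arms 2R (twi), 2L (Ance and ush), 3L (Doc3) and 3R (Dtg). Total RNA was compared on 11 2-colour cDNA arrays in 3 groups. There were 4 arrays of smg material aged 2 to 3 h, 4 arrays of wild-type (w1118) embryos aged 2 to 3 h, and 3 arrays of w1118 unfertilized eggs aged 4 to 6 h. RNA of w1118 stage 14 oocytes filled the other channel of every array, so the wild-type embryos, the unfertilized eggs and the oocytes share the w1118 stock. The product of smg (smaug) binds maternal transcripts and represses them, and the series title links it to the start of zygotic transcription. The labels give no smg allele and do not say whether the genotype is that of the mother or of the embryo. They name 3 of the smg samples SMG and the fourth SMGoverDf.

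In the early fly embryo the maternal Toll pathway carries the transcription factor Dorsal into ventral nuclei. There Dorsal switches on twi, whose helix-loop-helix product drives mesoderm formation, and it represses dpp, so that this BMP ligand is made on the dorsal side. Dpp and a second ligand, Scw, signal through receptors and Mad to genes of the dorsal ectoderm and of the amnioserosa, the extraembryonic tissue of the dorsal midline. Ance encodes an angiotensin-converting enzyme of the dorsal midline, Doc3 a T-box factor needed for the amnioserosa, and ush a zinc-finger partner of GATA factors. Dtg (Dpp target gene) is named for its response to Dpp. Oocytes and unfertilized eggs run no zygotic programme, so they show what the maternal supply alone gives.

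Each value below is a log2 ratio of the sample to oocytes, averaged over the spots of a gene, minus the median over all genes of that array. A value of 1 is therefore a 2-fold rise relative to the median gene of the array. Ratios of different genes are changes since the oocyte, not abundances. In whole embryos, fewer cells that use a gene and less of its RNA per cell cannot be told apart.

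Several arrays stood apart from the rest. smg replicate 1 had values for 51.1% of spots and wild-type embryo replicate 1 for 48.9%, against 75.0% to 99.1% on the other 9 arrays. Their medians as deposited were -4.43 and -4.01, against -0.37 to 0.16 elsewhere, and neither measured Dtg. smg replicate 3 correlated across genes at -0.51 with smg replicate 1, -0.34 with smg replicate 2, -0.49 with wild-type embryo replicate 1 and -0.41 with unfertilized replicate 1, but at 0.76 with smg replicate 4. With the same arrays, in that order, smg replicate 4 correlated at -0.17, -0.12, -0.18 and -0.18. smg replicate 1 correlated at 0.79 with wild-type embryo replicate 1, against 0.47 with smg replicate 2. By correlation alone, the direction of the ratios of smg replicate 3 is in doubt. Comparisons of the 5 genes with smg, and of other genes and lists that turn on that array, are given with its sign turned too. Which channel is the numerator is not given. The titles name the sample ahead of the oocyte, the yolk genes Yp1 to Yp3 were below 0 on 11 of 11 arrays and the gap gene Kr was above 0 on 8 of 9, so sample over oocyte is the likely direction. On smg replicate 3 itself, as deposited, Yp1, Yp2 and Yp3 were at -3.01, -1.20 and -1.75 and Kr at 1.47, the same signs as on the other smg arrays that measured them. Turned, each of these genes would have the sign opposite to that on the other smg arrays. The smg transcript itself was at -2.66, -1.18, 2.02 and 0.21 on smg replicates 1 to 4 and at -2.60, -0.77, -1.44 and -1.12 on wild-type embryo replicates 1 to 4. These ranges overlap, and with no allele given the transcript does not check the labels.

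Dtg showed the widest gap of the 5 genes between embryos of the same age. In smg its log2 ratios were 0.50, 1.10 and 1.14 on replicates 2, 3 and 4. In wild-type embryos they were 4.15, 3.49 and 2.98 on replicates 2, 3 and 4, and in unfertilized eggs -0.03, 0.45 and -0.13. The lowest wild-type embryo array lay above every smg and unfertilized array, and each smg array lay above each unfertilized one. The group means were 0.91 ± 0.36 in smg, 3.54 ± 0.58 in wild-type embryos and 0.09 ± 0.31 in unfertilized eggs (SD, n = 3 each). On each wild-type array that measured it, Dtg stood between percentiles 99.8 and 99.9 of the ratios of that array, against percentiles 74.5 to 93.5 on the smg arrays.

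Ance had log2 ratios of 0.74, -0.27 and 0.17 on smg replicates 2, 3 and 4, and was not measured on smg replicate 1. Wild-type embryos gave 3.15, 2.23, 1.57 and 2.12 on replicates 1 to 4, and unfertilized eggs gave 0.16, 0.39 and 0.12. Wild-type embryos again lay apart from both other groups, while the smg arrays spanned the range of the unfertilized eggs. Means were 0.21 ± 0.51 in smg (SD, n = 3), 2.27 ± 0.65 in wild-type embryos (n = 4) and 0.22 ± 0.15 in unfertilized eggs (n = 3). Ance was the 1 gene of the 5 whose mean was not higher in smg than in unfertilized eggs, with a difference of -0.01 that is below the spread of either group.

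For Doc3, smg replicates 1 to 4 gave 1.22, 0.23, 0.01 and 0.35, and wild-type embryos 1.38, 1.24, 1.22 and 1.67. Unfertilized eggs gave 0.17, -0.25 and 0.22. The highest smg array, replicate 1, reached the lowest wild-type array to the second decimal, and the other smg arrays fell among or just above the unfertilized eggs. Its means were 0.45 ± 0.53 in smg, 1.38 ± 0.21 in wild-type embryos (SD, n = 4 each) and 0.05 ± 0.26 in unfertilized eggs (n = 3). The SD of 0.21 was the smallest of the 5 genes among wild-type embryos.

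The gene ush in smg lay nearer to wild-type embryos than to unfertilized eggs by group mean. Its log2 ratios were 0.59, -0.10, 1.90 and 1.24 on smg replicates 1 to 4, against 0.40, 0.79, 0.95 and 2.14 in wild-type embryos and -0.46, -0.74 and -1.06 in unfertilized eggs. smg and wild-type embryos covered nearly the same range, and both lay above the unfertilized eggs on every array. Group means were 0.90 ± 0.86 in smg, 1.07 ± 0.75 in wild-type embryos (SD, n = 4 each) and -0.75 ± 0.30 in unfertilized eggs (n = 3). The highest smg value, 1.90, came from replicate 3, and is -1.90 with the sign of that array turned.

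twi gave 0.65, 0.22, 1.12 and 0.58 on smg replicates 1 to 4, 1.82, 0.93, 1.08 and 2.06 in wild-type embryos, and -0.23, -0.13 and -0.25 in unfertilized eggs. The embryo groups overlapped through smg replicate 3, and both lay above the unfertilized eggs. Means were 0.64 ± 0.37 in smg, 1.47 ± 0.55 in wild-type embryos (SD, n = 4 each) and -0.20 ± 0.07 in unfertilized eggs (n = 3).

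**Figure D1:**
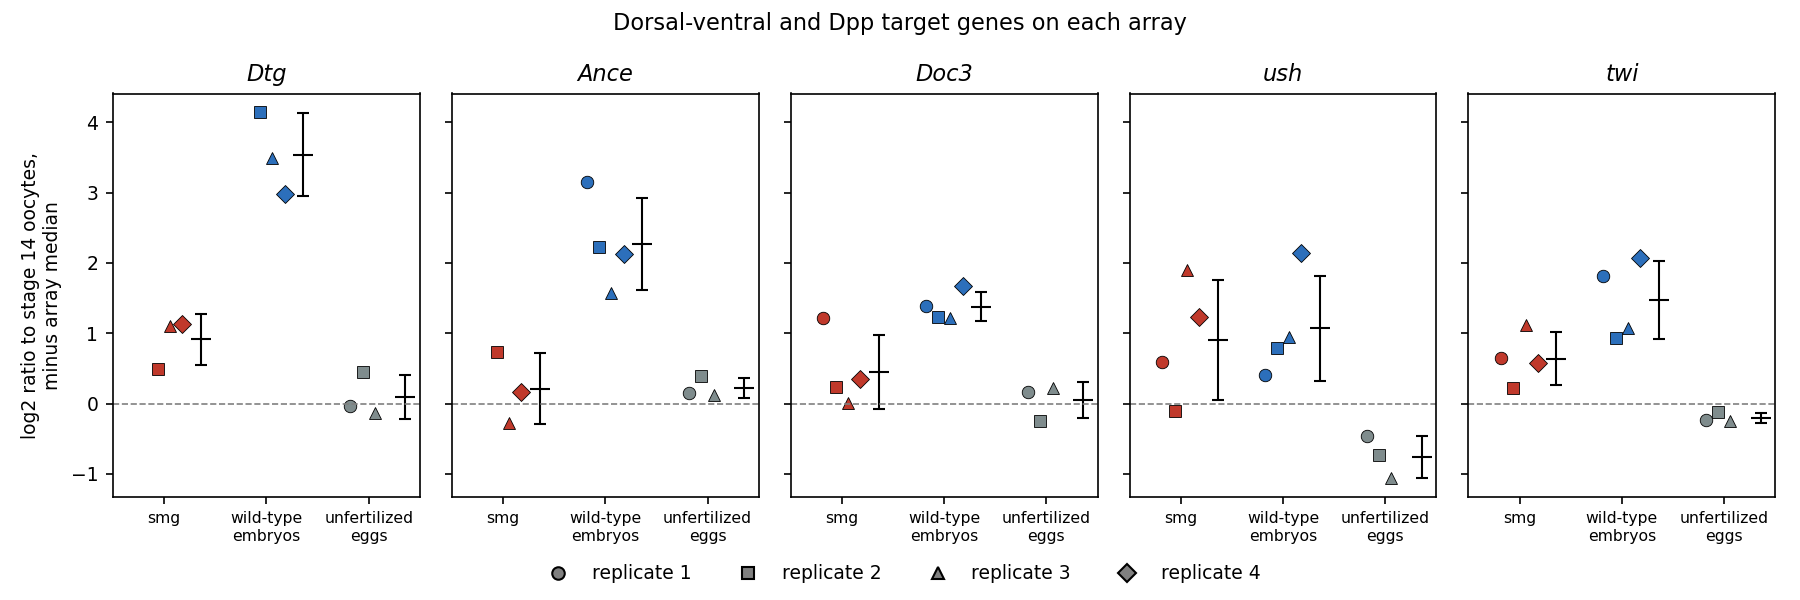
Log2 ratio to oocytes minus the array median (y axis) of each gene on each array, by group (x axis), with group mean and SD as bars. Dtg and Ance in wild-type embryos lie apart from both other groups, while ush in smg spans -0.10 to 1.90 beside 0.40 to 2.14 in wild-type embryos.

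The 4 spots of twi form 2 pairs of neighbouring spots, and the pairs gave different ratios in embryos. On the first pair, smg averaged -0.23 ± 0.10 (SD, n = 3) and wild-type embryos 0.59 ± 0.10 (n = 2). On the second pair, smg averaged 1.29 ± 0.87 with a range of 0.59 to 2.43, and wild-type embryos 1.68 ± 0.37 with a range of 1.19 to 2.06 (n = 4 each). In unfertilized eggs the pairs were alike, at -0.30 (n = 2) and -0.16 (n = 3). The first pair had no value on smg replicate 1, wild-type embryo replicates 1 and 4 and unfertilized replicate 2, so the mean of twi on those arrays is that of the second pair alone. With the second pair alone, an alternative added after the data were seen, smg minus wild type came to -0.39 (limma adjusted p = 0.914), against -0.83 with every spot. Whether the pairs detect the same transcript was not tested. For the genes with 1 pair, the spots differed by at most 1.08 log2 units where both were measured, for Doc3 on smg replicate 4. Values from 1 spot were those of Ance on wild-type embryo replicate 1 (3.15) and unfertilized replicate 2 (0.39). So were those of Doc3 on smg replicate 1 (1.22) and Dtg on wild-type embryo replicate 4 (2.98).

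**Figure D2:**
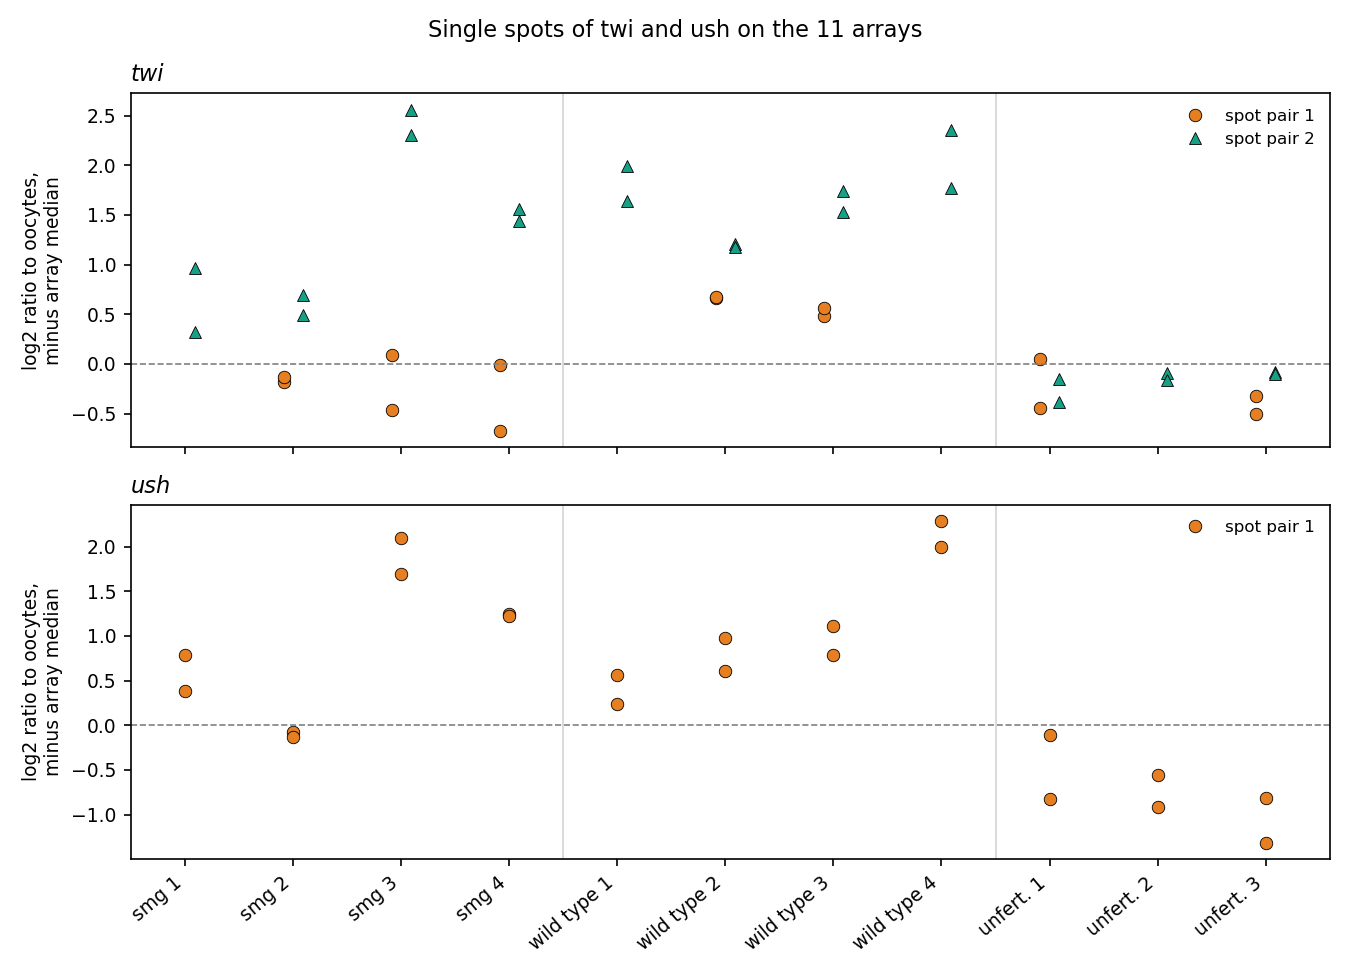
Log2 ratio to oocytes minus the array median (y axis) of every spot of twi and ush on the 11 arrays (x axis). The second twi pair reaches 2.43 as a mean of its spots on smg replicate 3, where the first pair lies near 0, while the 2 spots of ush differ by at most 0.71, on unfertilized replicate 1.

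Wild-type embryos had more twi, Ance, Doc3 and Dtg transcript than oocytes. The rise was 3.54 log2 units for Dtg, which is 11.6-fold, 2.27 for Ance (4.81-fold), 1.47 for twi (2.78-fold) and 1.38 for Doc3 (2.60-fold). These 4 of 5 genes passed limma's test with Benjamini-Hochberg adjustment over 6330 genes at 0.05, and 0.821% of all genes tested were called higher and 2.48% lower. Adjusted p was 4.80e-04 for Dtg (SE 0.32), 0.00288 for Ance (SE 0.30), 0.0129 for twi (SE 0.27) and 0.0139 for Doc3 (SE 0.26). ush was at 1.07 (SE 0.36, adjusted p = 0.156). Every measured wild-type array was above 0 for each of the 5 genes, which 18.6% of all genes also showed. The test sets the group mean against 0 and leaves out the spread of the oocyte sample, and its p-values measure the spread between arrays, which may be technical.

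These calls turned on 2 choices. As deposited, without subtracting the array medians, 0 of 5 genes passed (adjusted p 0.347 to 0.984), with Dtg at 3.54, Ance at 1.27, twi at 0.47, Doc3 at 0.38 and ush at 0.07. Without any 1 of the wild-type replicates, Ance and Dtg passed and twi and Doc3 did not: without replicates 1, 2, 3 and 4 the adjusted p of twi was 0.0868, 0.0512, 0.0578 and 0.0860, and that of Doc3 was 0.0744, 0.0887, 0.0812 and 0.0842. With sets of slides, split here by slide number, as a block, ush passed as well (adjusted p = 0.0209), in a fit that called 8.34% of all genes.

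**Figure D3:**
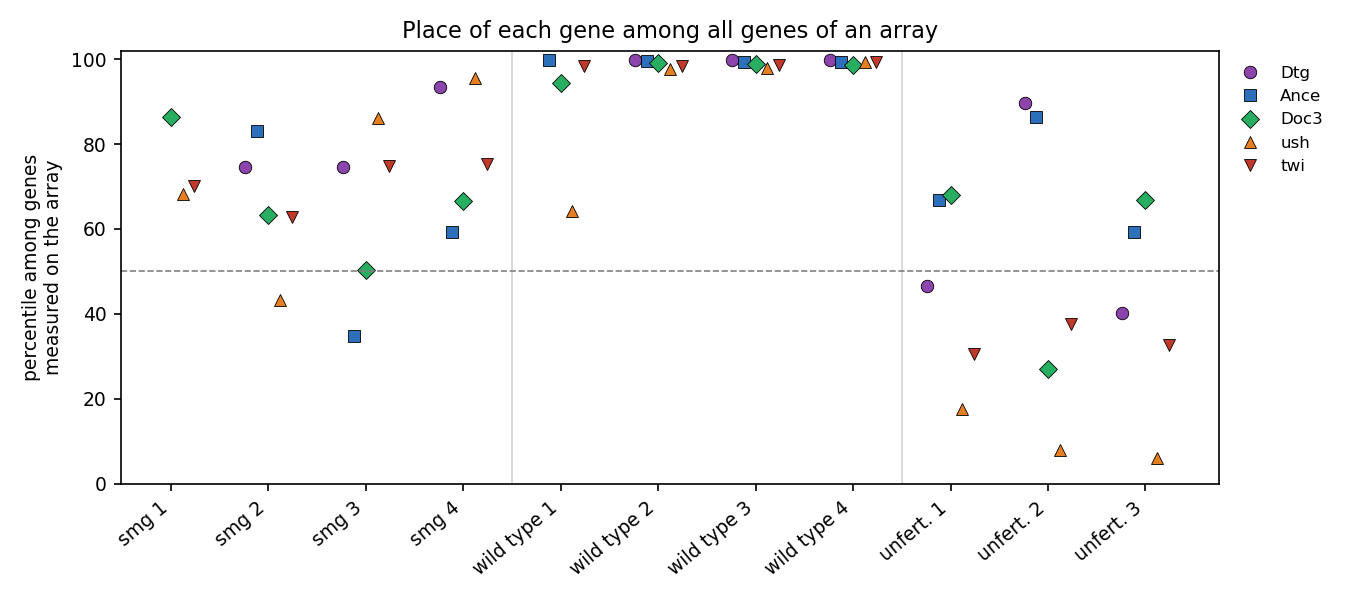
Percentile of each gene's ratio among all genes measured on the same array (y axis), array by array (x axis). On wild-type embryo replicates 2 to 4 the lowest of the 5 genes lies at percentile 97.8, and on replicate 1 ush lies at 64.3 and Doc3 at 94.5. On the smg arrays the genes spread between percentiles 34.8 and 95.5.

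In smg none of the 5 genes passed the test against oocytes. The means were 0.91 for Dtg (SE 0.33), 0.90 for ush (SE 0.36), 0.64 for twi (SE 0.28), 0.45 for Doc3 (SE 0.26) and 0.21 for Ance (SE 0.35). Adjusted p lay between 0.430 and 0.868 for the 5 genes over 6114 genes tested, of which 0.0818% were called in either direction. Unadjusted p was 0.0194 for Dtg, 0.0264 for ush and 0.0385 for twi, and 10.4% of all genes had an unadjusted p under 0.05. The direction depended on the arrays: as deposited, twi was at -0.47, Doc3 at -0.66 and ush at -0.21. With the sign of smg replicate 3 turned, ush was at -0.04, twi at 0.08, Dtg at 0.18, Ance at 0.39 and Doc3 at 0.45.

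Set against wild-type embryos of the same age, smg gave lower ratios for Dtg, Ance and Doc3 on every measured array, and none of the 5 differences passed the test across all genes. The difference, smg minus wild type, was -2.63 for Dtg (95% interval -3.67 to -1.58, unadjusted p = 2.04e-04, adjusted p = 0.0655). It was -2.05 for Ance (interval -3.08 to -1.02, adjusted p = 0.123) and -0.93 for Doc3 (interval -1.74 to -0.11, adjusted p = 0.399). Groups that did not overlap, with smg lower, were found for these 3 of 5 genes and for 4.04% of all genes. By limma, 0 of 5 genes were called, against 0.276% of 5793 genes, and Dtg ranked 18 of 5793 by p.

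twi and ush did not separate smg from wild-type embryos. For twi the difference was -0.83 (95% interval -1.69 to 0.02, adjusted p = 0.512). For ush it was -0.17 (interval -1.27 to 0.94, adjusted p = 0.992). The median difference over all genes was 0.17. Unadjusted p was under 0.05 for 3 of the 5 genes and for 10.1% of all genes.

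The calls for Dtg and Ance moved with the arrays and the model. Slides were split here by the numbers in their titles. Replicates 1 and 2 of both groups formed a lower-numbered set and replicates 3 and 4 a higher-numbered one. Whether these sets were separate batches was not tested. Within the lower-numbered and higher-numbered set, the difference was -3.65 and -2.12 for Dtg, -1.95 and -1.90 for Ance, and -0.58 and -1.27 for Doc3. It was -0.94 and -0.72 for twi, and -0.35 and 0.02 for ush. In the lower-numbered set, Dtg had 1 array in each group and Ance 1 smg array. With the sets as a block, Dtg (-2.63, adjusted p = 0.00693) and Ance (-1.92, adjusted p = 0.0143) passed, in a fit that called 4.06% of all genes. They also passed without smg replicate 1 (adjusted p = 0.0179 and 0.0317), where 3.41% of all genes were called. Dtg passed without smg replicate 3 (-2.72, adjusted p = 0.0386), where 0.482% were called. Without wild-type embryo replicate 1, 2 or 4, neither passed, and 0% of all genes were called. Counting fits of single spots, Dtg passed under 7 of 20 other settings and Ance under 4 of 21. Turning the sign of smg replicate 3 gave differences of -3.36 for Dtg (adjusted p = 0.0790), -1.87 for Ance (0.357), -1.39 for twi (0.897), -1.11 for ush (0.991) and -0.93 for Doc3 (0.991). The difference of ush was thus negative with the array as deposited or turned, and lay at 0.17 without smg replicate 2 and 0.19 without wild-type embryo replicate 4.

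**Figure D4:**
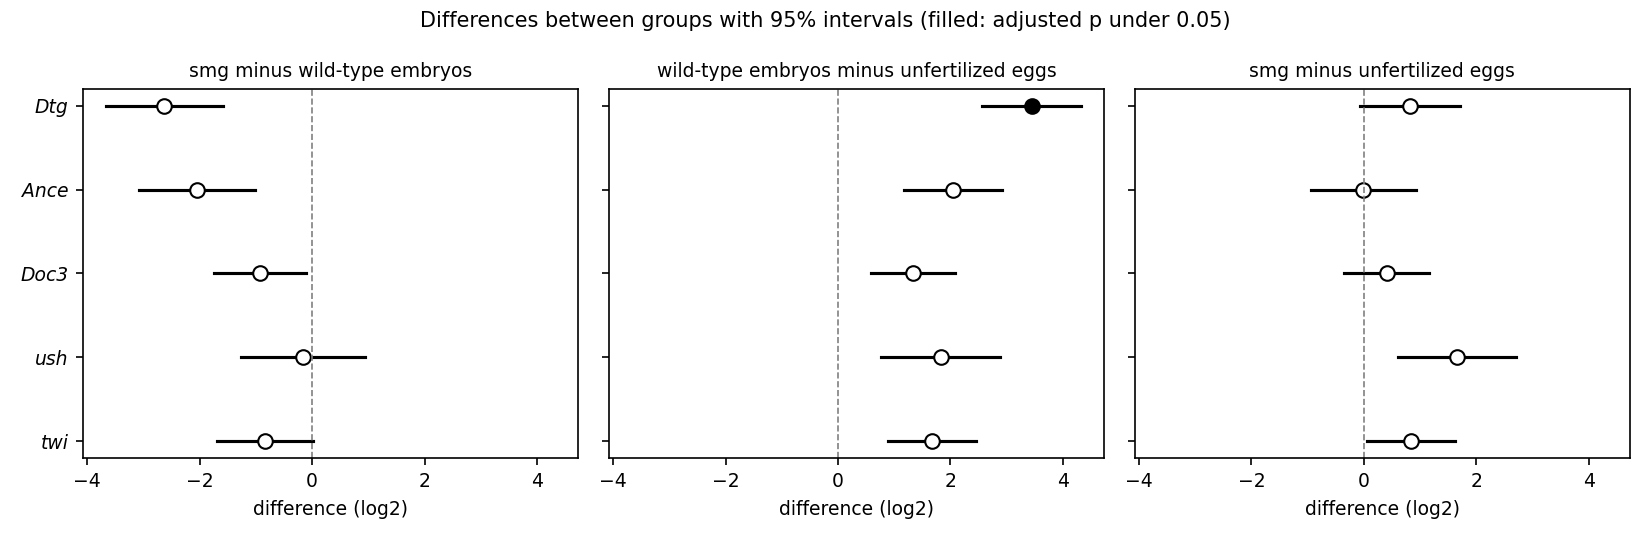
Difference between groups on the log2 scale (x axis) with 95% intervals for each gene (rows), one panel per comparison, filled where adjusted p was under 0.05. Dtg in wild-type embryos minus unfertilized eggs, at 3.45, is filled, and Dtg in smg minus wild-type embryos, at -2.63, is not.

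Unfertilized eggs held less ush transcript than oocytes and showed no called change of the other genes. ush fell by 0.75 log2 units (SE 0.18, adjusted p = 0.0131), and 10% of all genes were called lower. Dtg (0.09), Ance (0.22), Doc3 (0.05) and twi (-0.20) had adjusted p between 0.477 and 0.912. The ush call was lost without unfertilized replicate 3 (-0.60, adjusted p = 0.0667) and in a fit of all 11 arrays (adjusted p = 0.675).

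Wild-type embryos exceeded unfertilized eggs in each of the 5 genes on every array, with no overlap, which 6.78% of all genes also showed. The difference was 3.45 for Dtg (SE 0.41, adjusted p = 0.00162), the single member called, with 0.3% of all genes called. The others were Ance at 2.04 (adjusted p = 0.0625), ush at 1.82 (0.315), twi at 1.68 (0.101) and Doc3 at 1.33 (0.289). With the arrays of these 2 groups fitted alone, a choice added after the data were seen, 5 of 5 genes passed, with adjusted p between 1.10e-04 for Dtg and 0.0279 for ush and Doc3, and 1.08% of all genes were called. As deposited, 0 of 5 passed. Fertilization, age, dye orientation and labelling method all differ between these arrays and cannot be told apart: the sample was in an Alexa Fluor dye by indirect labelling at 2 to 3 h and in Cy3 by direct labelling in unfertilized eggs.

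smg against unfertilized eggs gave no call among the 5 genes, against 0.295% of all genes. The differences were 1.66 for ush (SE 0.49, adjusted p = 0.199), 0.84 for twi (0.390), 0.82 for Dtg (0.476), 0.40 for Doc3 (0.758) and -0.01 for Ance (0.996). ush, twi and Dtg were higher in smg on every measured array, as were 9.99% of all genes, and the median over all genes was 0.15. With the sign of smg replicate 3 turned they were 0.71, 0.28 and 0.08, Doc3 was at 0.40, and Ance turned positive, at 0.17. The same confounding of age, dyes and labelling holds here, and the genotype differs too.

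By group mean the order was wild-type embryos, smg and unfertilized eggs for Dtg, Doc3, ush and twi. For Ance the lower neighbours, smg and unfertilized eggs, differed by less than their spread. Between wild-type embryos and smg, the means of ush differed by less than 1 SD. For Doc3 the smg mean exceeded that of unfertilized eggs by less than the SD of the smg arrays.

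Genes whose values ran most like each of the 5 over the arrays were found by Pearson's r among genes measured on the same arrays, as a description. Dtg, over 9 arrays, ran most like Inx3, an innexin gene (r = 0.96, with group means of 0.99 in smg, 4.04 in wild-type embryos and -0.28 in unfertilized eggs), nkd (0.96) and Sry-alpha (0.96), a gene of blastoderm cellularization. For Ance, over 10 arrays, these were Galphas (0.95), dan (0.94) and Mipp1 (0.93). Doc3, over 11 arrays, gave Galphas (0.94), Itgbn (0.93) and apolpp (0.92), and twi gave dnt (0.90), Inx3 (0.89) and Nrt (0.89). ush, over 11 arrays, had other neighbours: Spase22-23 (0.96), Slbp (0.96) and Lrch (0.94), whose means of -1.10, -1.06 and -1.04 in unfertilized eggs lay below those in both embryo groups. The arrays share the oocyte RNA, and the 3 groups differ in mean.

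Other genes of the axis were described from lists. Of 8 Dorsal targets of mesoderm and ventral midline that were tested, 2 rose against oocytes, twi and the repressor gene hkb (1.31, adjusted p = 0.0245), with 0.821% of all genes called higher and a list median of 0.58 against 0.01 for all genes. Without twi, 1 of 7 rose and the median was 0.56. The gene hkb is counted again among the zygotic blastoderm genes below. NetB, a netrin gene, was at 0.07 in smg and 0.56 in wild-type embryos, and Asph at 0.26 and 0.90, with neither called in any comparison. Of 7 tested Dpp targets and amnioserosa genes, 4 rose, Dtg, Kr (3.94), Ance and Doc3, against the same 0.821% of all genes, and the median was 1.38. That list holds 4 of the 5 genes described here, so its median is not separate from theirs.

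Kr, which marks the amnioserosa as well as the central gap domain, averaged 1.81 ± 0.39 in smg, 3.94 ± 0.83 in wild-type embryos and 0.28 ± 0.31 in unfertilized eggs (SD, n = 3 each). smg minus wild type was -2.14 (adjusted p = 0.155), or -3.12 (0.486) with smg replicate 3 turned, and wild-type embryos minus unfertilized eggs 3.66 (adjusted p = 0.00224). The other Dorsocross genes, paralogs of Doc3, were less often measured. Doc2 was at -0.35 ± 0.31 in smg, 0.38 ± 0.24 in wild-type embryos and 0.34 ± 0.42 in unfertilized eggs (SD, n = 3 each). Its difference was -0.74 in smg minus wild type (adjusted p = 0.657; -0.39 with smg replicate 3 turned), and unlike Doc3 it overlapped between wild-type embryos and unfertilized eggs. Doc1 had values on 2 wild-type arrays and was not tested there. Dad, the inhibitory Smad that Dpp induces, was at -0.12 in smg, -0.09 in wild-type embryos and -0.43 in unfertilized eggs, with no call. Doc2, Doc1 and the names scw and tld below were chosen after their values were seen.

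The Dpp ligand and its partners did not pass the test. dpp had log2 ratios of 0.70, 0.50, 0.43 and 0.00 on smg replicates 1 to 4, against -0.15, 1.03, 0.78 and 0.40 in wild-type embryos, which overlap. Among 4 tested genes of the dorsal ectoderm that Dorsal represses, 1 rose in wild-type embryos, which was Dtg, against 0.821% of all genes. The ligand gene scw was at 0.41 in smg and 1.20 in wild-type embryos (adjusted p = 0.110 against oocytes), and tld, whose protease frees Dpp from its inhibitor Sog, at -0.02 and 1.04 (adjusted p = 0.253 against oocytes). Of 8 genes of Dpp signal transduction, 0 were called in any of the 6 comparisons, which called 0.0818% to 11% of all genes. The list medians were 0.39 in smg and 0.47 in wild-type embryos. cv, which helps carry Dpp through the extracellular space in the wing, was at 0.36 in smg and 0.14 in wild-type embryos. l(1)sc, the single measured gene of the neuroectoderm list, was at 0.21 in smg and 0.75 in wild-type embryos.

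None of the maternal Toll pathway genes upstream of twi rose in wild-type embryos. Of 11 genes tested in wild-type embryos, pll, the kinase gene pelle, fell by 1.18 (adjusted p = 0.0327), against 2.48% of all genes called lower, and the list median was -0.49. In unfertilized eggs 3 of 11 fell: spz, which encodes the Toll ligand, by 1.69 (adjusted p = 2.40e-05), dl, which encodes Dorsal, by 0.75 (0.0208), and pll by 0.65 (0.0318), against 10% of all genes called lower. In smg 0 of 10 were called, with a median of 0.55 against oocytes and 0.98 against wild-type embryos, also with 0 of 10 called. Of all genes, 0.0818% and 0.276% were called in these 2 comparisons. The list medians on smg replicates 1 to 4 were -0.11, -0.12, 2.06 and 1.01, with replicate 3 at -2.06 if turned. With that array turned, the list median was -0.38 against oocytes and 0.19 against wild-type embryos, so the direction against oocytes depends on it. dl was at 0.53 ± 0.64 in smg and -0.56 ± 0.28 in wild-type embryos (SD, n = 4 each, adjusted p = 0.329), a difference that was 0.36 with smg replicate 3 turned. Gprk2 was at 0.71 in smg and -0.17 in wild-type embryos, and Dif, a Dorsal-related factor, at 0.15 and 0.41.

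**Figure D5:**
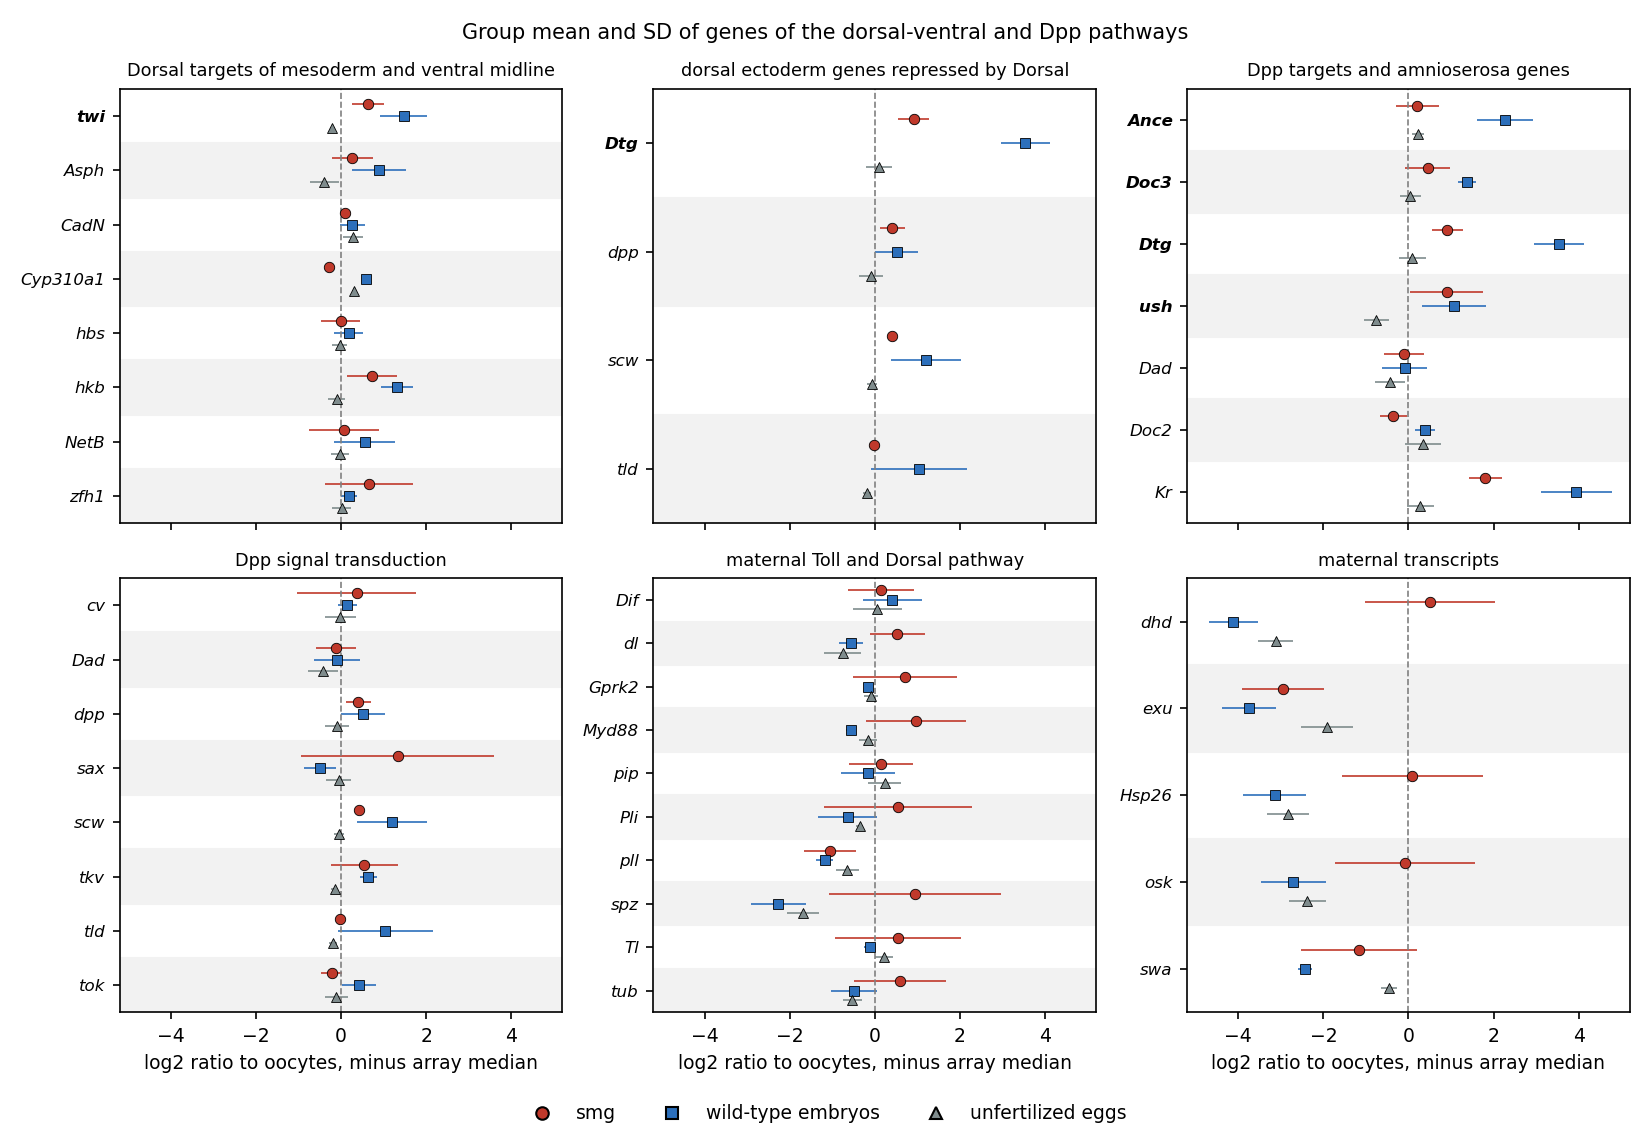
Group means and SD of log2 ratios to oocytes minus the array median (x axis) of genes (rows) from 6 lists, with smg as circles, wild-type embryos as squares and unfertilized eggs as triangles. Wild-type embryos exceed smg for Dtg, Ance, Doc3 and Kr, while smg exceeds wild-type embryos for spz and the maternal transcripts dhd, Hsp26 and osk.

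Marker lists of zygotic and maternal transcripts were read on the same arrays. Of 7 zygotic blastoderm genes 4 rose in wild-type embryos (Kr, Sry-alpha, hkb and kni), against 0.821% of all genes called higher. In smg 0 of 7 were called against oocytes or wild-type embryos, where 0.0818% and 0.276% of all genes were called. In unfertilized eggs 1 of 7 was called higher, the gap gene tll (0.73 on 2 of 3 arrays, adjusted p = 0.0478), against 0.988% of all genes. Their list medians were 1.17, 0.68, 1.13 and 0.52 on smg replicates 1 to 4, against 1.06, 1.49, 0.77 and 0.73 in wild-type embryos and 0.03, -0.12 and 0.20 in unfertilized eggs. Of 5 maternal transcripts 5 fell in wild-type embryos and 4 in unfertilized eggs, against 2.48% and 10% of all genes called lower. In smg 1 fell (exu, by 2.95, limma adjusted p = 0.00523), with 0.0654% of all genes called lower. The exu call was lost with smg replicate 3 turned (-2.17, adjusted p = 0.421) and without smg replicate 2 (0.135) or 4 (0.0565), and held under 15 of 22 other settings. dhd was higher in smg than in wild-type embryos by 4.62 (adjusted p = 0.0156), where 0.19% of all genes were called higher. That call was lost with smg replicate 3 turned (3.39, adjusted p = 0.0571), without smg replicate 2 (0.0581) or 4 (0.0688) and without wild-type embryo replicate 1 (0.152), 2 (0.0860) or 4 (0.123), and held under 12 of 20 other settings. The maternal medians were -1.80, -1.05, 2.04 and 0.20 on smg replicates 1 to 4 and between -3.77 and -2.55 in wild-type embryos. As deposited, smg replicates 3 and 4 were the highest smg arrays both for maternal transcripts and for ush; turned, replicate 3 was at -2.04 and -1.90, the lowest for both. Turned, its zygotic median was -1.13. The part of developmental stage or of retained maternal RNA in the differences of the 5 genes was not tested.

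Cofactors and paralogs of the 5 genes did not pass the test. Among paralogs and partners of the 5 genes, 0 of 6 were called in wild-type embryos, against 3.3% of all genes. The Ance paralog Acer was at 0.44 in smg and 0.24 in wild-type embryos, and GATAe, of the family that ush binds, at 0.91 ± 1.79 in smg and -0.22 ± 0.74 in wild-type embryos (SD, n = 4 each). Of 5 haemocyte and fat body markers, the scavenger receptor gene crq fell in wild-type embryos (by 2.08, limma adjusted p = 0.0218) and in unfertilized eggs, and 0 rose. Of all genes, 2.48% and 10% were called lower there. Of the late muscle and neuron genes, nSyb was not called in any comparison. Mlc1, with values on 2 smg arrays, was not tested in smg and was not called in the other comparisons.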

How the data were processed

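Per the labels, total RNA from eggs or embryos and from stage 14 oocytes was labelled with different dyes and hybridised to 1 array, with 60 µg per channel at 2 to 3 h. Per the submitters' design text, QuantArray 3 quantified the images, and GeneTraffic Duo 3.2 normalized the ratios by rank-invariant LOWESS. The authors deposited 1 normalized log2 ratio per spot and array, with no intensities. Base 2 was inferred from the range of the values (lowest -11.92). The sources used here give no background correction, spot filter or numerator.

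Of 27648 spots, 15116 carried 1 gene, 102 several, and 12430 were not listed. Spots were averaged to 6793 genes, of which 6690 matched the reference annotation (Release 6 plus ISO1 MT, used for names and chromosome arms). Each array's median over genes was subtracted. A gene needed values on at least 3 of 4 arrays of a 2 to 3 h group and on 2 of 3 unfertilized arrays. limma 3.58.1 (lmFit, then eBayes, in R 4.3.3) gave two-sided tests with Benjamini-Hochberg adjustment over all genes tested. The fit was also run on simulated data with independent noise on each array. The real arrays correlate with each other, so that run does not bear on the calls given here. smg and wild-type embryo arrays shared 1 fit. Unfertilized eggs were fitted alone against oocytes and with all 11 arrays against embryos. Since no oocyte sample was hybridised against the oocyte RNA, group means were tested against 0.

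The number of arrays and the share of spots measured limit the precision. Nothing in the labels says that replicates came from separate cultures. Replicates were numbered in order of accession.

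The 5 genes and the gene lists were chosen with earlier results of these data known. By rule, the text names the 5 genes throughout, up to 3 called members of each list per comparison or else the 2 measured on most arrays, and the 3 genes with the highest Pearson r to each of the 5. No sequence or promoter table was used here, so no motif was searched.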

Additional observations from a re-analysis of the deposited data

Results flagged for a closer look

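Differences of twi and ush are given here because the groups lay on opposite sides of the oocyte level, and that of Dtg because its own test passed. twi was above 0 on each of 4 wild-type embryo arrays and below 0 on each of 3 unfertilized arrays, with a difference of 1.68 (limma adjusted p = 0.101). ush did the same, with a difference of 1.82 (adjusted p = 0.315). The Dtg difference between wild-type embryos and unfertilized eggs, 3.45, passed the test itself (adjusted p = 0.00162), with 1 of 3 unfertilized arrays above 0. As a mean of its spots, twi was also above 0 on each of 4 smg arrays and below 0 on each unfertilized array, with a difference of 0.84 (limma adjusted p = 0.390). The first pair of twi spots alone was below 0 in smg, at -0.34 to -0.16 (n = 3), overlapping -0.41 to -0.19 in unfertilized eggs (n = 2). The share of all genes with groups on opposite sides of 0 was not counted. The wider rule of no overlap was met by 6.78% of all genes with wild-type embryos above unfertilized eggs. For smg above unfertilized eggs it was met by 9.99%. No array was flagged as an outlier in the 7 groups of 4 measured arrays, by a check that chance would trip about 1 time in 20 in each group. With 4 values a group the check is weak. Doc3 on smg replicate 1, at 1.22 against 0.01 to 0.35 on the other smg arrays, was not flagged.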

How the results depend on the processing

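The 5 genes in 6 comparisons gave 662 values under other settings: 585 kept their direction and side of the threshold, 34 newly passed it, 16 no longer passed, and 27 changed sign. No smg setting called any of the 5 genes against oocytes. Of the 5 genes, 4 passed in wild-type embryos against oocytes, against 0 as deposited, 2 with genes measured on every array (Ance and Dtg were then not tested) and 2 to 5 when 1 array was left out. The share of all genes called was 3.3%, against 0% as deposited, 6.57% with genes measured on every array and 0.615% to 7.93% with an array left out. In unfertilized eggs 1 passed, against 0 in a fit of all 11 arrays and 0 to 1 with an array left out. Of all genes 11% were called there, against 0.884% and 7.37% to 10.8% in these fits. In smg against wild-type embryos 0 passed, against 1 with the median over genes measured on every array, 2 with arrays scaled to 1 spread, 3 with array weights, 2 with the slide block, 0 to 2 with an array left out, and 1 without the low-median pair and smg replicate 3 (added after the data were seen). The report called 0.276% of all genes there. In that order, these fits called 0.345%, 2.62%, 16.1%, 4.06%, 0% to 3.41% and 0.579% of all genes. In wild-type embryos against unfertilized eggs 1 passed, against 0 as deposited, 4 scaled, 0 with genes measured on every array, 5 with array weights, 5 with the compared groups alone, and 1 to 3 with an array left out. The report called 0.3% of all genes there. In that order, these fits called 0%, 0.854%, 0.211%, 6.75%, 1.08% and 0.225% to 0.506% of all genes. In smg against unfertilized eggs 0 passed, against 1 scaled and 0 with any array left out. The scaled fit called 5.79% of all genes there, against 0.295% in the report. The causes were not tested. limma's array weights stopped before convergence, with a weight of 14.29 for wild-type embryo replicate 3.

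As deposited, smg against oocytes gave -0.47 for twi, -0.66 for Doc3 and -0.21 for ush, and smg against unfertilized eggs gave -0.24 for twi, 0.0097 for Ance and -0.68 for Doc3. Single spots of twi gave -0.22 and -0.24 in smg against oocytes, the first pair -0.23, and 1 spot -0.089 against unfertilized eggs; 1 spot of Ance gave 0.23 there. Ance in smg against oocytes was at -0.15 with the median over genes measured on every array, and -0.051 to 0.45 with an array left out. With the sign of smg replicate 3 turned, ush was at -0.045 against oocytes and Ance at 0.17 against unfertilized eggs. Array weights gave -0.0099 for Doc3 in unfertilized eggs against oocytes, 0.046 for ush in smg against wild-type embryos and 0.26 for Ance in smg against unfertilized eggs. With an array left out, Doc3 ranged from -0.041 to 0.19 and Dtg from -0.083 to 0.21 in unfertilized eggs against oocytes, ush from -0.50 to 0.19 in smg against wild-type embryos, and Ance from -0.27 to 0.23 in smg against unfertilized eggs. Without the low-median pair and smg replicate 3, ush was at -0.73 in smg against wild-type embryos and Ance at 0.23 in smg against unfertilized eggs. The median over genes measured on every array moved the median difference of all genes to -0.25 in smg against wild-type embryos, from 0.17 in the report.

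Calls over all genes ranged over the settings from 0 to 930 in smg against wild-type embryos (16 in the report; 128 higher and 24 lower when scaled, against 11 and 5), 0 to 158 in smg (5; 0 higher and 15 lower with the median over genes measured on every array, against 1 and 4), 0 to 2444 in wild-type embryos (209), 60 to 849 in unfertilized eggs (748), 0 to 427 in wild-type embryos against unfertilized eggs (19) and 0 to 354 in smg against unfertilized eggs (18). No paired analysis was possible because the replicate numbers order the arrays by accession and name no pairs.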
